A study of Mus musculus with 4 samples.

Results

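The genes described here are 44 mouse genes of brain myeloid cells, in 4 groups: homeostatic microglia (10 genes), a complement and phagocytic core (18 genes), the disease-associated state (10 genes) and border macrophages (6 genes). They were chosen by name, and each was found on the array through the transcript identifier of its probes. Of the 20832 genes with a matched symbol, they made up 42, on 53 probes, and Cd68 and Clec7a had no matched probe. A further 5 genes (Spi1, Cd163, Ccr2, Cst7 and Itgax) fell short of the scanner software's threshold for a signal well above background on 1 or more arrays in each channel, which left 37 of the 15759 genes tested. Of these 37 genes, 36 passed this background threshold in both channels of each array, and Gpnmb passed it in red on 4 arrays and in green on 2.

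The study set Ndrg2-/- mice against wild type mice, all male, 3 months old and on the C57BL/6N background, with RNA from the cerebral cortex. Ndrg2 is a gene of the N-myc downstream regulated family that astrocytes express strongly. Each of 4 dual-colour Agilent arrays carried an Ndrg2-/- sample in red (Cy5) and a wild type sample in green (Cy3), each from 200 ng of RNA. The labels do not tell single mice from pools, or separate animals from repeat samples. The p-values thus reflect only the spread between these samples, and that spread may be technical. The labels also do not state which part of Ndrg2 was deleted.

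Microglia are the resident macrophages of the brain tissue. They depend on signalling through the CSF1 receptor, sense nucleotides and fractalkine, and clear debris and complement-tagged synapses. In plaque and degeneration models in mice, microglia take on a disease-associated state that depends on the receptor TREM2 and its adaptor TYROBP. Border macrophages are a separate population in the meninges, around vessels and in the choroid plexus, marked by scavenger and mannose receptors.

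The Ndrg2 probe itself read 0.32 ± 0.14 higher on the log2 scale in the samples labelled Ndrg2-/- (SD, n = 4 arrays, limma adjusted p = 0.0173), with 0.11, 0.37, 0.40 and 0.38 on arrays 1 to 4. Its call was lost with replicate 2 left out, at an adjusted p of 0.0795, and with replicate 3 left out, at 0.0651. The call was also lost with the scanner software's processed signals, with the deposited values, and with the paired samples fitted as separate groups. The probe therefore did not check the labels, and every direction below is that of the samples as labelled. No dyes were exchanged, so dye and genotype cannot be told apart. All 4 arrays were on 1 slide and in 1 scan. The median spot signal was 283 to 336 in red and 94 to 122 in green, over local backgrounds of 87 to 96 and 22 to 26, and 70.6% to 73.4% of spots in red and 70.7% to 72.7% in green were well above background. Each value below is the log2 ratio of labelled Ndrg2-/- over wild type after background correction and normalization within the array, or the normalized intensity of one channel, in array units. Intensities are not compared between genes. All 10 homeostatic microglial, 8 neuronal and 9 astrocyte markers looked for passed the background threshold for testing.

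The border macrophage genes were higher in the samples labelled Ndrg2-/-, while most microglial genes were not called. Among the 37 tested genes 12 were called, 11 higher and 1 lower, at an adjusted p under 0.05 by limma over all kept probes. Of the 37 genes 29.7% were higher and 2.7% lower, against 9.12% higher and 5.84% lower over all genes, of which 15.0% were called in either direction. The 12 changes were small: the largest was 27.6% in Pf4, and no tested gene differed by 1.5 fold or more, with 1 sign, on each of the 4 arrays, as 0.0952% of all genes did. Above 0 on all 4 arrays were 19 of the 37 genes, beside 24.1% of all genes, and below 0 on all 4 were 5, beside 18.6%. The median log2 ratio of the 37 genes was 0.10, and that of all genes was 0.01. In cortex RNA, more cells of a type and more RNA per cell cannot be told apart. Without replicate 1, 2, 3 or 4, the number of these genes called was 5, 1, 5 and 8, with Pf4 the only gene called each time. With median centring in place of loess, the split was 32 higher and 1 lower, but the median of all genes was then 0.28.

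The medians of the 4 groups were read on each array. The border macrophage median was 0.28, with 0.21, 0.21, 0.27 and 0.46 on arrays 1 to 4, and all 4 tested genes were called higher. The homeostatic median was 0.11, with 0.14, 0.04, 0.12 and 0.14, and 3 of 10 genes were called higher. The border median was above the homeostatic one on each array. The difference was 0.07, 0.17, 0.14 and 0.32 (mean 0.18 ± 0.11, SD, n = 4), but with median centring in place of loess the order turned, with 0.41 for border and 0.53 for homeostatic genes. The complement and phagocytic core had a median of 0.04 (0.08, -0.02, 0.10 and 0.04), with 3 genes higher and 1 lower of 16 tested. The disease-associated genes had a median of 0.07 (0.07, 0.13, 0.06 and 0.10), with 1 gene higher of 7 tested. Their median minus the homeostatic one was of mixed sign over the arrays, at -0.07, 0.09, -0.06 and -0.03 (mean -0.02 ± 0.07, SD, n = 4).

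**Figure D1:**
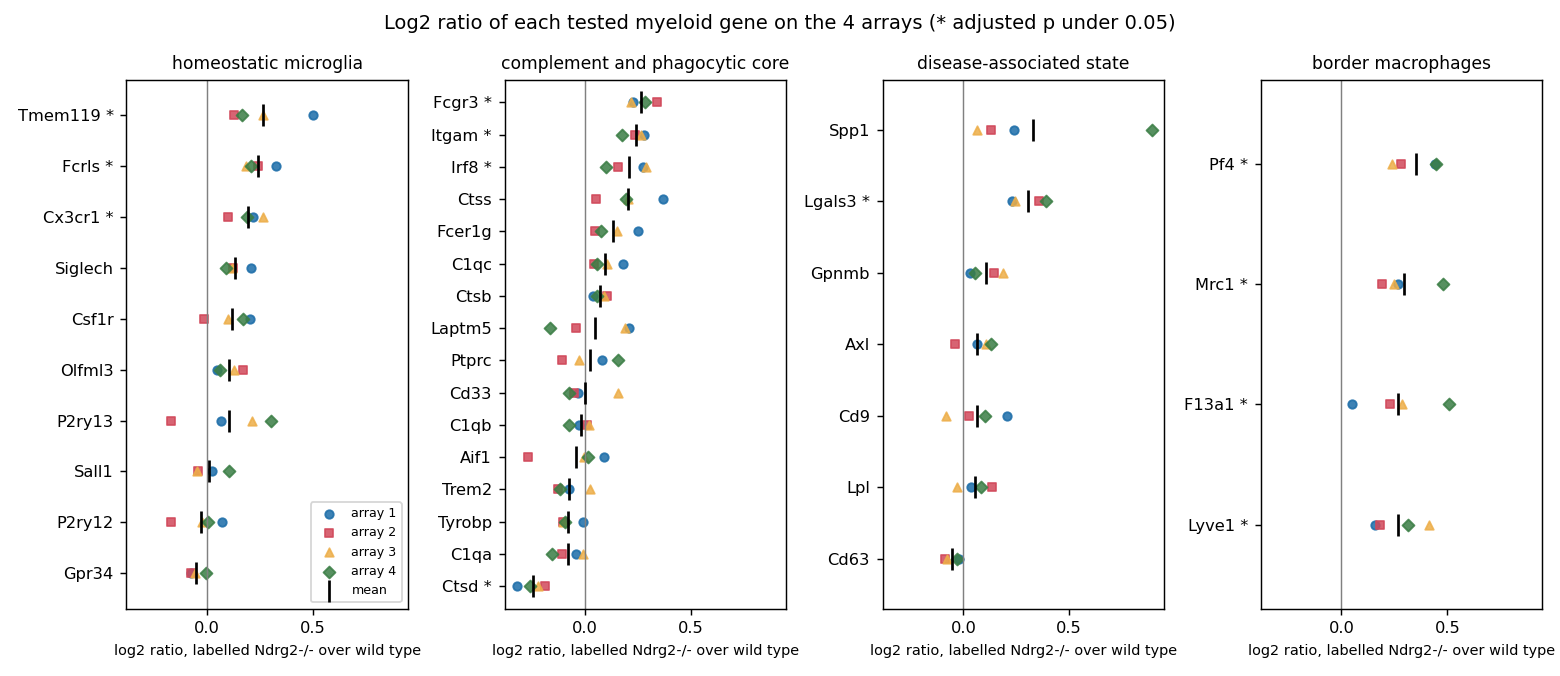
Log2 ratio of labelled Ndrg2-/- over wild type (x axis) for each of the 37 tested myeloid genes, in 4 panels by group. Each marker is 1 array, the black tick is the mean of the 4 arrays, and an asterisk marks an adjusted p under 0.05. All 4 border macrophage genes lie right of 0 on each array, while the genes of the complement and phagocytic core lie on both sides, with Ctsd lowest at -0.25.

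All 4 tested border macrophage genes rose in the samples labelled Ndrg2-/-, by 20.4% to 27.6%. Promoters of Pf4, Mrc1 and F13a1 are shown as examples of this group. The sequences are from RefSeq on GRCm38.p6, and run from 250 bases before to 50 bases after the annotated start, on the strand of the gene. Capitals mark the core motif GAGGAAG of PU.1, the transcription factor (gene Spi1) that specifies myeloid cells, or its reverse complement. No promoter sequence was at hand for Lyve1, which is named only.
Pf4 promoter (chr5:90772185-90772484, plus strand): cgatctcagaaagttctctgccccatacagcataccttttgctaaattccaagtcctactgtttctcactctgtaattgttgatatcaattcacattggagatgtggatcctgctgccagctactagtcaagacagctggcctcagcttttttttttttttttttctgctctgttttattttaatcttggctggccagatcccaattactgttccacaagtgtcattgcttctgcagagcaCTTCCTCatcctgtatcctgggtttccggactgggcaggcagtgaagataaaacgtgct
Mrc1 promoter (chr2:14229164-14229463, plus strand): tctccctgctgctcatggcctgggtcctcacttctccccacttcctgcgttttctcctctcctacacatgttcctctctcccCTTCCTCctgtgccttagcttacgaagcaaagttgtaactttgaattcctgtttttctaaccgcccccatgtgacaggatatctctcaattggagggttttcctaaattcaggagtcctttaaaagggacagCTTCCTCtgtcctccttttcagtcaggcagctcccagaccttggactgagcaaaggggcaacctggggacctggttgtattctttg
F13a1 promoter, start 1 (chr13:37050195-37050494, minus strand): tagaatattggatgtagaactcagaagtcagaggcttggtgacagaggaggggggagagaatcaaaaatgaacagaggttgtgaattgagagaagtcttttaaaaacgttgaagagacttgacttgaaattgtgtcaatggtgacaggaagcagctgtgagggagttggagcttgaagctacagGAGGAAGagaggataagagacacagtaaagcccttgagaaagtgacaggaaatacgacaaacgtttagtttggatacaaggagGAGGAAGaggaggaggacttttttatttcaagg
F13a1 promoter, start 2 (chr13:37049164-37049463, minus strand): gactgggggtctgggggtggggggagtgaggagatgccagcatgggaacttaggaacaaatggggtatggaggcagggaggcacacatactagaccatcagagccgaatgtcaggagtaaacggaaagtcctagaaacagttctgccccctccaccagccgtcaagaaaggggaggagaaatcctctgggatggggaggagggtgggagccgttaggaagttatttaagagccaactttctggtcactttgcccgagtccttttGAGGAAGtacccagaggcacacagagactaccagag

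The Pf4 promoter holds 1 match, 9 bases before the start on the opposite strand. Mrc1 holds 2, at 168 and 36 bases before the start, both on the opposite strand. F13a1 holds matches 66 bases before and 17 bases after its first start, and 14 bases after its second. Searched on both strands, GAGGAAG was found in 17 of the 43 promoters that 35 of the 44 genes had, against 13.6% of 32851 RefSeq promoters of this length. The composite motif of PU.1 and IRF factors, which overlaps the core in part, was in 3 of these 43 promoters, of Cd68 and Clec7a, against 2.72% of all promoters. Of the 15 genes with a GAGGAAG match, F13a1, Fcgr3, Fcrls, Itgam, Mrc1 and Pf4 were called higher. The rest were not called: Axl, C1qc, Cd33, Cd63, Ctss, Laptm5, P2ry13, Spp1 and Trem2. Over the 37 tested genes 29.7% were called higher, and Cx3cr1, Irf8, Lgals3, Lyve1 and Tmem119 were so without a match found. For some of these, Lyve1 and Tmem119 among them, no promoter sequence was at hand. A match is a run of letters and was not tested as a site, and its part in the log2 ratios was not tested.

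Pf4, a chemokine (CXCL4) that platelets and border macrophages make, had intensities of 748, 790, 831 and 882 in the samples labelled Ndrg2-/- of arrays 1 to 4, against 551, 650, 704 and 648 in wild type samples. The ranges did not overlap. Its log2 ratio was 0.35 ± 0.11 (SD, n = 4, limma adjusted p = 0.00831), and it was called with each replicate left out.

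Mrc1 encodes the mannose receptor CD206, which takes up mannosylated glycoproteins. It read 308, 356, 399 and 346 in the samples labelled Ndrg2-/-, against 257, 312, 336 and 249 in wild type samples. The groups overlapped across arrays, but the sample labelled Ndrg2-/- was the higher on each array. This gave a log2 ratio of 0.30 ± 0.13 (SD, n = 4, limma adjusted p = 0.0179), with the highest value, 0.48, on array 4. The call was lost without replicate 1, 2 or 3 (adjusted p = 0.0564, 0.0556 and 0.0543).

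Lyve1, a hyaluronan receptor of lymphatic vessels and border macrophages, was dim. It read 96.8, 106, 124 and 117 in the samples labelled Ndrg2-/-, against 86.6, 93.8, 92.8 and 94.0 in wild type samples, with no overlap. Its log2 ratio was 0.27 ± 0.12 (SD, n = 4, limma adjusted p = 0.0209), but -0.06 (adjusted p = 0.377) with median centring in place of loess. Without replicate 2, 3 or 4 the call was lost (adjusted p = 0.067, 0.0754 and 0.0556).

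F13a1 encodes the A subunit of coagulation factor XIII, which cross-links fibrin and is made by tissue macrophages. It read 223, 279, 319 and 308 in the samples labelled Ndrg2-/-, against 216, 238, 262 and 217 in wild type samples. The difference was near 0 on array 1, at 0.05, and widest on array 4, at 0.51. The mean log2 ratio was 0.27 ± 0.19 (SD, n = 4, limma adjusted p = 0.0468). Without replicate 2, 3 or 4 the adjusted p was 0.131, 0.128 and 0.0887, and without replicate 4 the log2 ratio was 0.19. The call was lost with processed signals or the deposited values, at 0.35 (adjusted p = 0.0564), and with a background offset of 16 (adjusted p = 0.0727). A further F13a1 probe was not well above background. The scavenger receptor Cd163 and the monocyte chemokine receptor Ccr2 were not well above background in any sample.

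**Figure D2:**
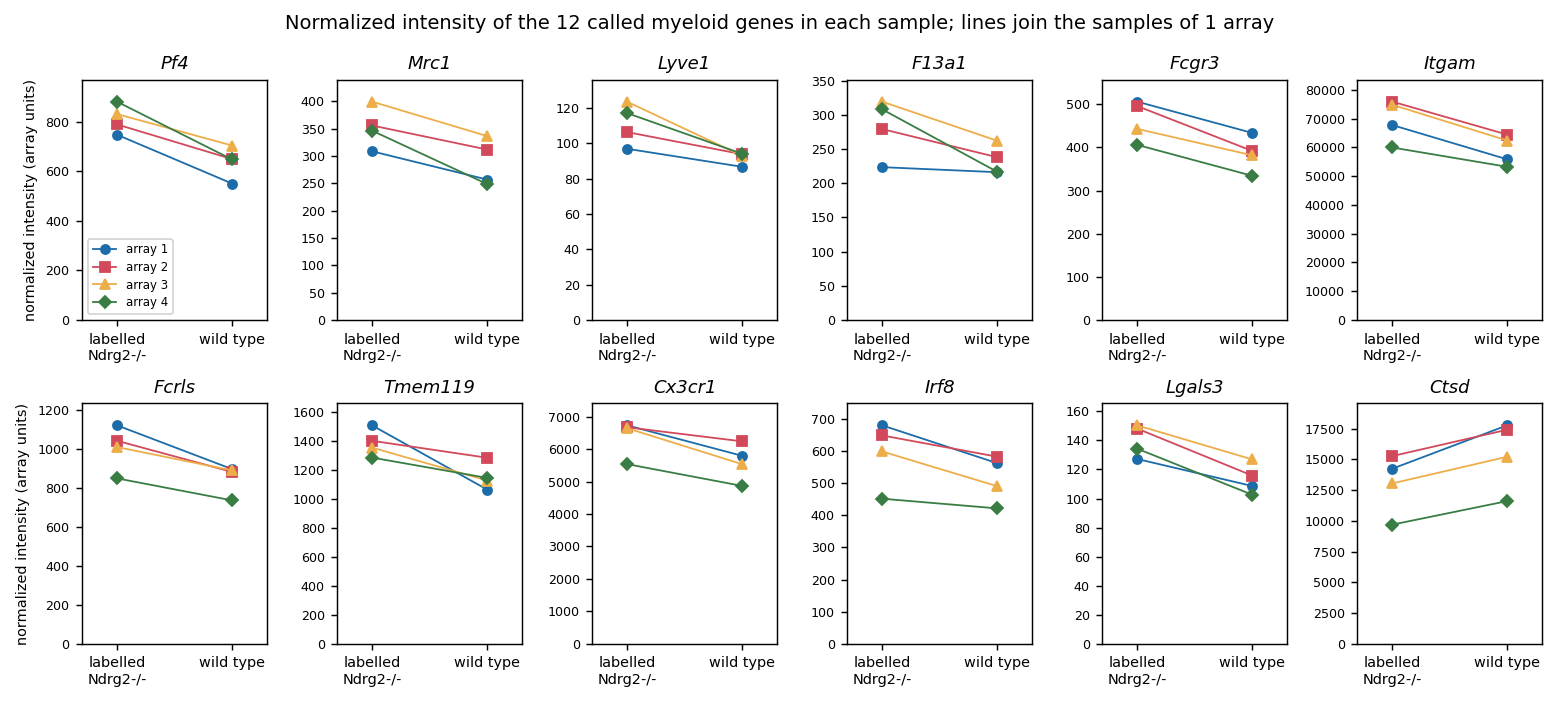
Normalized intensity (y axis, array units, from 0, with a scale of its own in each panel) of the 12 called myeloid genes in the samples labelled Ndrg2-/- (left) and wild type samples (right). Each line joins the samples of 1 array. The line falls to the right in 11 genes on each array and rises to the right in Ctsd.

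Of 12 other genes of border macrophages, 10 were tested and 4 rose: Cbr2 (0.36), Colec12 (0.36), Dab2 (0.30) and Cd209f (0.23). This was 40% of the 10, against 9.12% of all genes called higher. Cbr2 is a carbonyl reductase, Colec12 a scavenger receptor, Dab2 an endocytic adaptor and Cd209f a C-type lectin. The median of the 10 was 0.19, with 0.20, 0.23, 0.21 and 0.25 on arrays 1 to 4. Of the 4 calls, Cbr2 was kept with each replicate left out, Colec12 was lost without replicate 2 (adjusted p = 0.0521), and Dab2 was lost without replicate 2 (0.0615) or 3 (0.0589), as adjusted p. Cd209f was lost without replicate 1, 2 or 3 (adjusted p = 0.0974, 0.129 and 0.113). The remaining 6 had means of 0.03 (Ccl24) to 0.21 (Folr2, the folate receptor beta) and were not called.

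Genes of antigen presentation divided by class, and 50% of the 6 tested were called higher, against 9.12% of all genes. All 3 genes of the class II pathway that were tested rose: H2-Ab1 by 0.51 ± 0.17, Cd74, the invariant chain, by 0.34 ± 0.20, and H2-Eb1 by 0.30 ± 0.16 (SD, n = 4; limma adjusted p = 0.00549, 0.0277 and 0.0255). None of the 3 class I genes tested was called: H2-D1 had a log2 ratio of 0.11, B2m 0.04 and H2-K1 0.03, with 0 of 3 at an unadjusted p under 0.05 by limma. H2-Ab1 was called with each replicate left out. Cd74 was lost without replicate 2 (adjusted p = 0.0859) or 3 (0.0833), and H2-Eb1 without replicate 1, 2 or 3 (adjusted p = 0.0603, 0.0688 and 0.0768). The class II regulator Ciita and H2-Aa were not tested.

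Markers of meningeal fibroblasts moved with the border macrophage genes. Of 13 tested, 11 rose, or 84.6% against 9.12% of all genes called higher. The median was 0.45, with 0.49, 0.45, 0.23 and 0.67 on arrays 1 to 4. Lum, a collagen-binding proteoglycan, was at 0.59 ± 0.11, Mgp, matrix Gla protein, at 0.52 ± 0.41, Col1a1 at 0.52 ± 0.29 and Dcn, decorin, at 0.50 ± 0.26 (SD, n = 4). Array 4 had the highest median in both lists, while array 3 had the lowest meningeal median and the second highest border macrophage one. On arrays 1, 2 and 4 the border macrophage median was below the meningeal one, by 0.27, 0.24 and 0.21, and on array 3 it was 0.03 above. The part that meningeal tissue in the samples plays in the border macrophage values was not tested. Lum was called with each replicate left out. Without replicate 2 the adjusted p was 0.0969 for Mgp, 0.0838 for Col1a1 and 0.0655 for Dcn. Without replicate 1 these calls were lost too (0.0728, 0.0665 and 0.0626), as were Mgp without replicate 3 (0.0928) and Col1a1 without replicate 4 (0.0571). Mgp was at 0.32 without replicate 4.

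**Figure D3:**
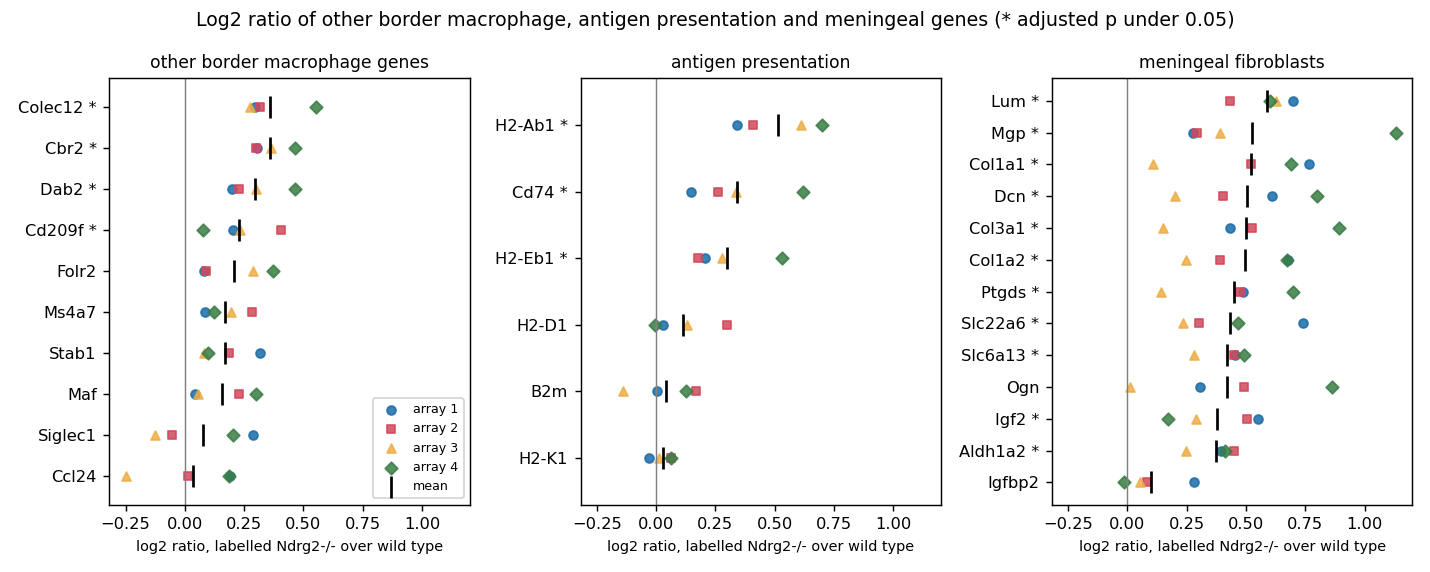
Log2 ratio of labelled Ndrg2-/- over wild type (x axis) of other border macrophage genes, genes of antigen presentation and markers of meningeal fibroblasts. Each marker is 1 array, the black tick is the mean, and an asterisk marks an adjusted p under 0.05. The means of all 13 meningeal markers lie right of 0, Lum highest at 0.59, and the means of the class II genes H2-Ab1, Cd74 and H2-Eb1 lie right of those of the class I genes.

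No marker of blood leukocytes was called higher. Over all genes 9.12% were higher and 5.84% lower, so with 9 markers tested this absence says little. Of 14 such genes 9 were tested and 1 was lower, S100a9, a calcium-binding protein of neutrophils, at -0.56 ± 0.19 (SD, n = 4, limma adjusted p = 0.00543). S100a9 was lower on each array, and the median of the 9 was -0.02.

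Of the 10 homeostatic genes tested, 3 were called, all higher: Tmem119, Fcrls and Cx3cr1. Tmem119, a membrane protein that separates microglia from other macrophages, read 1506, 1399, 1352 and 1283 in the samples labelled Ndrg2-/-, against 1063, 1282, 1125 and 1143 in wild type samples. The log2 ratio was 0.27 ± 0.17 (SD, n = 4, limma adjusted p = 0.0385), with 0.50 on array 1 and 0.13 to 0.27 on the others. The lowest value labelled Ndrg2-/-, 1283, and the highest wild type value, 1282, nearly met.

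Fcrls, an Fc receptor-like scavenger receptor of mouse microglia, read 1121, 1042, 1010 and 849 in the samples labelled Ndrg2-/-, against 896, 881, 889 and 736 in wild type samples. Only the array 4 sample labelled Ndrg2-/- lay within the wild type range. Fcrls had a log2 ratio of 0.24 ± 0.06 (SD, n = 4, limma adjusted p = 0.0157). The call was lost without replicate 1 (adjusted p = 0.0581) or 2 (0.0719). Its promoter is shown as a homeostatic gene whose promoter holds the PU.1 core in capitals, once, 144 bases before the start.
Fcrls promoter (chr3:87263475-87263774, minus strand, RefSeq on GRCm38.p6): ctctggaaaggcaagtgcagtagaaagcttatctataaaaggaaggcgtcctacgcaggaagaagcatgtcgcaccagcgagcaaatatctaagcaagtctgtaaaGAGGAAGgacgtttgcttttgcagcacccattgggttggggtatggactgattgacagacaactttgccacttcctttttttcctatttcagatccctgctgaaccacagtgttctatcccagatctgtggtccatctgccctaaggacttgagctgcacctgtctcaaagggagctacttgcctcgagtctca

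Cx3cr1, the fractalkine receptor through which neurons signal to microglia, read 6739, 6678, 6650 and 5542 in the samples labelled Ndrg2-/-, against 5797, 6243, 5538 and 4868 in wild type samples. The groups overlapped through array 4, which was the dimmest in both. The log2 ratio was 0.19 ± 0.07 (SD, n = 4, limma adjusted p = 0.0301), but another Cx3cr1 probe gave 0.08 ± 0.11 (adjusted p = 0.304). With any 1 replicate left out, the calls of Cx3cr1 (adjusted p = 0.0626 to 0.116) and Tmem119 (0.0579 to 0.109) were lost. Both were also lost with processed signals or the deposited values (adjusted p = 0.0611 for Cx3cr1 and 0.0703 for Tmem119) and with a background offset of 16 (0.0516 and 0.0638).

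Of the 7 homeostatic genes not called, Siglech, a sialic acid-binding lectin, came closest, at 0.13 ± 0.05 (SD, n = 4, limma adjusted p = 0.0664). It was above 0 on all 4 arrays, but its other probe gave -0.04. Siglech also lay among the brightest 1% of tested genes, whose median log2 ratio was 0.18, and the part of brightness was not tested. Csf1r, the receptor for CSF1 and IL-34 on which microglial survival depends, gave 0.12, 0.12 and 0.13 from 3 probes, none called. Olfml3, a secreted olfactomedin-like protein, gave 0.10 (adjusted p = 0.136) from its brightest probe, while its other probe gave 0.34 (adjusted p = 0.0183).

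The purinergic receptors were among those not called. P2ry12, which guides microglial processes toward ATP and ADP, read 2164, 1878, 1724 and 1416 in the samples labelled Ndrg2-/-, against 2058, 2115, 1751 and 1414 in wild type samples, and its log2 ratio was -0.03 ± 0.10 (SD, n = 4). The groups overlapped almost fully. P2ry13, a related ADP receptor, was at 0.10 ± 0.21, Gpr34, a lysophosphatidylserine receptor, at -0.05 ± 0.03, and Sall1, a transcription factor of microglial identity, at 0.01 ± 0.07. The intervals of the log2 ratio at 95% were -0.14 to 0.08 for P2ry12 and -0.09 to 0.11 for Sall1.

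Of 19 other microglial genes 2 rose, a share close to the 9.12% of all genes called higher. These were Slco2b1, an organic anion transporter, at 0.24, and Itgb5, an integrin subunit, at 0.21. The median of the 19 was 0.04. The Slco2b1 call was lost without replicate 1 or 2 (adjusted p = 0.0573 and 0.0578), and that of Itgb5 on leaving out any of the 4 (adjusted p = 0.0516 to 0.0868). Among 11 genes of the signals that keep microglia alive or restrained, 1 rose, or 9.09%, again close to the share of all genes. This was Tgfb1, the cytokine that maintains the homeostatic state, at 0.19 ± 0.04 (SD, n = 4, limma adjusted p = 0.0232). The Tgfb1 call was lost without replicate 1, 2 or 3 (adjusted p = 0.0796, 0.099 and 0.0767). The ligands of CSF1R, Csf1 at 0.02 and Il34 at -0.12, were not called.

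In the complement and phagocytic core, an Fc receptor, an integrin and a transcription factor gene were higher and a lysosomal protease gene was lower, while the C1q and TREM2 genes were not called. Fcgr3, an activating Fc gamma receptor, read 506, 496, 443 and 406 in the samples labelled Ndrg2-/-, against 434, 392, 382 and 334 in wild type samples. The groups overlapped, and the sample labelled Ndrg2-/- was the higher on each array. The mean ratio was 0.26 ± 0.06 on the log2 scale (SD, n = 4, limma adjusted p = 0.0111), and the call was lost without replicate 2 (adjusted p = 0.061). The signalling chain of Fc receptors, Fcer1g, was at 0.13 ± 0.09 and was not called (adjusted p = 0.105).

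Itgam encodes CD11b, the alpha chain of complement receptor 3. Its brightest probe read 67796, 75918, 74838 and 59971 in the samples labelled Ndrg2-/-, against 55845, 64433, 62388 and 53246 in wild type samples, a log2 ratio of 0.24 ± 0.05 (SD, n = 4, limma adjusted p = 0.0139). Other Itgam probes gave 0.11 and 0.14 and were not called (adjusted p = 0.169 and 0.113). The brightest probe lay among the brightest 1% of tested genes (157 genes), of which 52.2% were called higher, and the part of brightness in its call was not tested. The call was lost without replicate 1, 2 or 3 (adjusted p = 0.0557, 0.0671 and 0.0596), and with processed signals or the deposited values, at 0.18 (adjusted p = 0.057).

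Irf8, a transcription factor that acts with PU.1 in myeloid cells, read 681, 649, 599 and 452 in the samples labelled Ndrg2-/-, against 563, 583, 491 and 422 in wild type samples. Array 4 was the dimmest in both groups, which overlapped. Irf8 had a log2 ratio of 0.20 ± 0.09 (SD, n = 4, limma adjusted p = 0.0319), lost without replicate 1, 2 or 3 (adjusted p = 0.105, 0.0943 and 0.119), with processed signals or the deposited values (0.088) and with a background offset of 16 (0.0541). Spi1, which encodes PU.1, was not well above background in any sample.

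Ctsd, the aspartic protease cathepsin D of lysosomes, was the only one of the 37 genes called lower. Its promoter is shown because, unlike most, it holds the E-box CACGTG, in capitals, which the lysosomal regulators TFEB and TFE3 bind.
Ctsd promoter (chr7:142387778-142388077, minus strand, RefSeq on GRCm38.p6): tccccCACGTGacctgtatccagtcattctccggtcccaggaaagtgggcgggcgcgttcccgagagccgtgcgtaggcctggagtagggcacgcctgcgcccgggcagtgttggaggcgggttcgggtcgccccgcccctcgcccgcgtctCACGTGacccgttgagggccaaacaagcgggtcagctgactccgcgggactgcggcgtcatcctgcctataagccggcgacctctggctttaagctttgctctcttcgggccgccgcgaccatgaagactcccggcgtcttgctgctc

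The E-box stands 245 and 98 bases before the start and reads the same on both strands. It was found in 3 of the 43 promoters searched, those of Ctsd, P2ry12 and Siglech, against 7.15% of all RefSeq promoters of this length.

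Ctsd read 14238, 15268, 13043 and 9690 in the samples labelled Ndrg2-/-, against 17781, 17422, 15221 and 11611 in wild type samples. The sample labelled Ndrg2-/- was the lower on each array, although the groups overlapped. The log2 ratio was -0.25 ± 0.06 (SD, n = 4, limma adjusted p = 0.0133). Another Ctsd probe gave -0.04 ± 0.28 (adjusted p = 0.801), the call was lost without replicate 1 (adjusted p = 0.0525) or 2 (0.0521), and the sign turned with median centring in place of loess (0.21).

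Ctss and Ctsb, the other cathepsins of the core, were above 0 on all 4 arrays and were not called. Ctss, a cysteine protease of microglia that stays active at neutral pH, read 9713, 10335, 10100 and 7063 in the samples labelled Ndrg2-/-, against 7518, 9974, 8792 and 6177 in wild type samples, at 0.20 ± 0.13 (SD, n = 4, limma adjusted p = 0.0512). Ctsb, another cysteine protease, was at 0.07 ± 0.03. Of 13 other lysosomal genes, Psap, the precursor of the saposins, was lower at -0.38 ± 0.19 (SD, n = 4, limma adjusted p = 0.0189) and Lamp2, a lysosomal membrane protein, was higher at 0.14 ± 0.02 (adjusted p = 0.0453), with a median of -0.04. Each direction held 7.69% of the 13, against 9.12% higher and 5.84% lower over all genes. Psap lost its call without replicate 1 (adjusted p = 0.0554) or 4 (0.0528) and Lamp2 with any replicate left out (0.0861 to 0.155).

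The C1q chains, which start the classical complement pathway, were not called: C1qa was at -0.08 ± 0.07, C1qb at -0.02 ± 0.04 and C1qc at 0.09 ± 0.06 (SD, n = 4). C1qa read 2307, 2121, 2056 and 1650 in the samples labelled Ndrg2-/-, against 2376, 2285, 2070 and 1842 in wild type samples. C1qa was below 0 and C1qc above 0 on all 4 arrays, so the 3 chains did not share a direction.

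Among other complement genes, 3 that rose were Serping1, the C1 inhibitor, at 0.43 ± 0.21, C1ra, a protease of the C1 complex, at 0.33 ± 0.10, and C2, a component of the C3 convertase, at 0.28 ± 0.16 (SD, n = 4; limma adjusted p = 0.0163, 0.00961 and 0.0303). The complement list held 14 genes, of which 11 were tested, and over all genes 9.12% were called higher. C3 was at -0.03 and C4b at 0.08, neither called. Serping1 was lost without replicate 1 (adjusted p = 0.0587) or 2 (0.0611), C1ra without replicate 2 (0.0572), and C2 without replicate 1, 2 or 4 (0.0578, 0.12 and 0.0768).

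TREM2 is a lipid receptor of microglia and TYROBP (DAP12) the adaptor that carries its signal. Trem2 read 2569, 2617, 2499 and 1971 in the samples labelled Ndrg2-/-, against 2709, 2858, 2457 and 2138 in wild type samples, at -0.07 ± 0.07 (SD, n = 4, limma adjusted p = 0.273). Tyrobp was at -0.08 ± 0.05 (adjusted p = 0.21), with -0.01 on array 1 and -0.10 to -0.11 on the others. Neither was called.

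Among 11 genes of ligands, kinases and proteases in TREM2 signalling, 2 rose, both for apolipoproteins that bind TREM2 and that astrocytes also make: Apoe at 0.25 ± 0.07 (SD, n = 4, limma adjusted p = 0.0146) and Clu at 0.16 ± 0.05 (adjusted p = 0.0366). These were 18.2% of the 11, against 9.12% of all genes called higher. The kinase Syk (0.12) and the phospholipase Plcg2 (0.19) were not called. Apoe and Clu also lay among the brightest 1% of genes. Without replicate 1, 2 or 3 both were lost (adjusted p = 0.0557, 0.0684 and 0.0621 for Apoe, and 0.115, 0.126 and 0.129 for Clu). With the scanner software's processed signals, and with the deposited values, Apoe was at 0.13 (adjusted p = 0.134) and Clu at 0.04 (adjusted p = 0.54).

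The remaining core genes were near 0. Aif1, which encodes the microglial stain target IBA1, was at -0.04 ± 0.16 with -0.27 on array 2. Ptprc (CD45, a phosphatase of all leukocytes) was at 0.02 ± 0.12, Cd33, an inhibitory sialic acid receptor, at 0.00 ± 0.11, and Laptm5, a lysosomal protein of blood cells, at 0.05 ± 0.18 from its brightest and -0.02 from its other probe (SD, n = 4). None was called.

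The disease-associated genes gave 1 call among 7 tested, or 14.3% against 9.12% of all genes called higher. Lgals3, galectin-3, a lectin that binds TREM2, read 127, 148, 150 and 134 in the samples labelled Ndrg2-/-, against 109, 116, 127 and 103 in wild type samples. The ranges all but met, with a lowest value of 127.2 labelled Ndrg2-/- and a highest wild type value of 126.9. The log2 ratio was 0.30 ± 0.08 (SD, n = 4, limma adjusted p = 0.00916), and the call was lost without replicate 2 (adjusted p = 0.056). With median centring in place of loess Lgals3 was at 0.11 and was not called (adjusted p = 0.08). Lgals3 lies on chromosome 14, as does Ndrg2, with Lgals3 the 33rd tested gene from it in gene order. Of the 100 tested genes nearest Ndrg2, 50 to each side, 24 were higher and 22 lower (46%), and the part of this position in the Lgals3 call was not tested.

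Spp1, osteopontin, a secreted phosphoprotein, read 222, 211, 198 and 311 in the samples labelled Ndrg2-/-, against 188, 193, 189 and 168 in wild type samples. The ranges did not overlap, but array 4 alone was at 0.89, with 0.06 to 0.24 on the others. The mean was 0.33 ± 0.38 (SD, n = 4, limma adjusted p = 0.121) and Spp1 was not called.

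The other disease-associated genes were small in size and not called. Gpnmb, a transmembrane glycoprotein of lipid-laden macrophages, was at 0.11 ± 0.07. Axl, a receptor tyrosine kinase for apoptotic cells, was at 0.07 ± 0.08, Cd9, a tetraspanin, at 0.06 ± 0.12, Cd63, a tetraspanin of late endosomes, at -0.05 ± 0.03, and Lpl, lipoprotein lipase, at 0.06 ± 0.07 (SD, n = 4). The other Lpl probe gave -0.04. The cystatin Cst7 and the integrin Itgax (CD11c) were well above background on 1 array in red and on 2 in green, and were not tested.

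Most inflammatory genes fell short of the background threshold. Of 12 cytokine and enzyme genes 5 were tested and none was called by limma, with 1 at an unadjusted p under 0.05, the chemokine Ccl3 at -0.17 ± 0.19 (SD, n = 4). Ccl3 was dim and passed the background threshold on every array in only 1 channel. Its log2 ratio ran from -0.58 to -0.12 over the alternative settings. Ptgs2, which encodes cyclooxygenase-2, was at 0.08 ± 0.34, with values of -0.20, -0.17, 0.20 and 0.51 on arrays 1 to 4. Il1b was at -0.06, and Tnf, Il6 and Il1a were not tested.

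**Figure D4:**
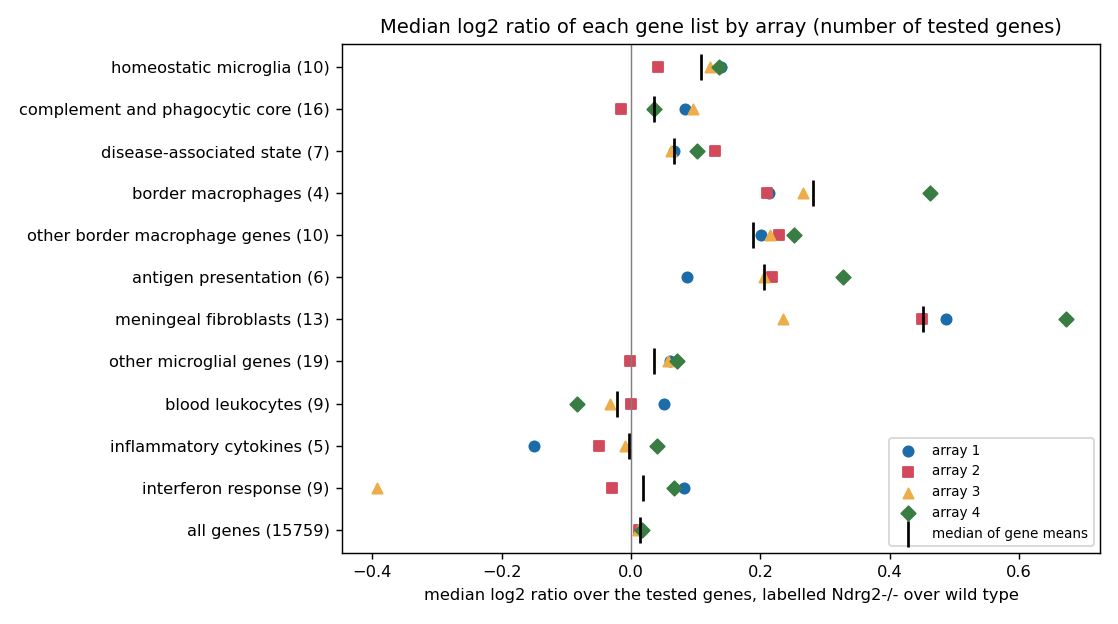
Median log2 ratio of labelled Ndrg2-/- over wild type (x axis) of each gene list, with the number of tested genes in parentheses. Each marker is 1 array and the black tick is the median of the gene means. Border macrophage genes at 0.28 and meningeal fibroblast genes at 0.45 lie right of the homeostatic genes at 0.11, and all genes lie at 0.01.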

How the data were processed

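Cortex RNA of 4 Ndrg2-/- and 4 wild type samples was measured on 4 dual-colour arrays. The authors used Agilent Feature Extraction on the images. Its version is 10.7.3.1 in the submitters' processing notes, but the file headers name 11.0.1.1. The deposited intensity of each spot is a median over its pixels, per the file headers, with local background given apart, and the log10 ratio is red over green processed signal. The authors also deposited log2 values, which matched the log2 ratio of red over green processed signal within 0.01 on each array (100% of probes) and had column medians of 0.04, 0.03, -0.04 and -0.04.

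Ratios were computed from the raw intensities in R 4.3.3 with limma 3.58.1 (and the data.table package, version 1.17.8): normexp background correction with an offset of 50, then loess within each array, with 1377 control spots at weight 0. The other spots numbered 43020 on an array; 802 that the software marked as outliers (summed over arrays) were left out, and none was saturated. Replicate spots (399 probes) were averaged. Of 39429 probes, 27664 were kept because red, green or both were well above background on each array. Symbols came from transcript identifiers matched to RefSeq gene names (27427 probes), and each gene was read from its brightest kept probe. An intercept-only fit (lmFit and eBayes, 3 residual and 4.47 prior degrees of freedom) gave p-values, adjusted with Benjamini-Hochberg across every kept probe. The ratio within an array pairs the samples: deviations of its 2 channels correlated at 0.38 to 0.52, and at most 0.28 with another array. The number of arrays limits the precision.

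The 44 genes, the 17 other lists and the tests were chosen with earlier results of these data known. All 44 genes are named, with every kept probe where probes differ, and from each other list up to 4 called genes by size, or up to 2 where none was called; further genes named beside them were chosen after their values were seen. One gene of the other lists is not reported here. Alternatives were an offset of 16, processed signals, the deposited values, median centring without loess, no filter, a filter in both channels, the mean over probes, an intensity trend with robust prior, each replicate left out, no replicate block, and 1.5 fold. In simulated arrays with 50 changed genes per size among 15759, the fit called 8 at a log2 ratio of 0.2, 23 at 0.3, 37 at 0.5 and 48 at 1, with 0 false calls. Figures were drawn with Python 3.11.15, pandas 2.3.3 and matplotlib 3.10.9.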

Additional observations from a re-analysis of the deposited data

Results flagged for a closer look

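Of 95 genes and list medians examined, 8 had 1 array that stood apart from the other 3 by more than Dixon's 95% critical value for 4 values, and chance gives about 1 in 20. Among the myeloid genes this was Tyrobp, at -0.0114 on array 1 against -0.106, -0.103 and -0.0953 on the others. The median of the homeostatic genes was 0.0424 on array 2, below 0.139, 0.122 and 0.136. Ndrg2 was at 0.112 on array 1, below 0.373, 0.403 and 0.383.

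Array 4 stood apart in 4 genes of vessels, meninges and border macrophages. Colec12, a scavenger receptor, was at 0.552 there against 0.295, 0.315 and 0.276. Mgp was at 1.13 against 0.275, 0.296 and 0.39. The smooth muscle genes Acta2 and Tagln were at 1.51 and 1.20 on array 4, with no other array above 0.28. Isg15, an interferon-induced ubiquitin-like protein, was at -0.621 on array 3 against 0.0112, -0.053 and 0.0319.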

How the results depend on the processing

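The 12 calls among the 37 genes became 7 (6 higher, 1 lower) with processed signals and with the deposited values, where Cx3cr1, Tmem119, F13a1, Irf8 and Itgam were lost, 8 with an offset of 16, where the first 4 of these were lost, 33 (32 higher) with median centring, 1 without the replicate block, 0 at 1.5 fold on all arrays, and 1 to 8 with a replicate left out. The 2357 calls over all genes became 1329 with processed signals and with the deposited values, 12971 (10645 higher) with median centring, 671 without the replicate block, 15 at 1.5 fold, and 452 to 1544 with a replicate left out. Without the replicate block, the paired samples are fitted as separate groups. The single gene still called was Fcgr3. The group medians moved by more than the SD of their array values with median centring, to 0.53 (homeostatic), 0.32 (core), 0.37 (disease-associated) and 0.41 (border macrophages). With a replicate left out they ran over 0.11 to 0.15, 0.01 to 0.07, 0.05 to 0.09 and 0.24 to 0.31, in the same order. The core median was at -0.00719 with processed signals and with the deposited values. Among genes of the other lists, those settings also ended the calls of Itgb5, C2, Lamp2, Psap, Cd209f, Cd74, Dcn, Col1a1 and Mgp. Signs turned with median centring in Aif1 (0.32), C1qa (0.28), C1qb (0.31), Cd63 (0.41), Ctsd (0.21), Gpnmb (-0.31), Gpr34 (0.24), Hba-a1 (0.36), Isg15 (0.16), Lyve1 (-0.0622), P2ry12 (0.32), Psap (0.12), Ptprc (-0.13), Trem2 (0.29) and Tyrobp (0.30), and otherwise in genes near 0: Ptprc was at -0.0256 with processed signals and deposited values, and Sall1 at -0.00334 with an offset of 16. With a replicate left out, Aif1 ran over -0.0861 to 0.0327, Cd33 over -0.0542 to 0.0231, Hba-a1 over -0.313 to 0.0632, Laptm5 over -0.00724 to 0.117, P2ry12 over -0.0642 to 0.0173, Ptgs2 over -0.0587 to 0.177, Ptprc over -0.0203 to 0.0692 and Sall1 over -0.0226 to 0.0291. The causes were not tested. Among the tested myeloid genes, signal over background limits Lyve1, Lgals3 and Gpnmb most, and the simulated arrays show that changes of 0.2 were mostly missed.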

Other observations

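Interferon-induced genes, which type I interferon raises in microglia and other cells, varied between the arrays. None of the 9 tested was called by limma, and without adjustment 0 passed p under 0.05. The list's median was 0.08, -0.03, -0.39 and 0.07 on arrays 1 to 4. On array 3, Usp18 was at -0.63, Isg15 at -0.62, Ifit1 at -0.59, Ifi27l2a at -0.44 and Oasl2 at -0.39. Over all 4 arrays, Ifit1 and Isg15 averaged -0.16 each.

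Lists of other cell types were measured beside the myeloid genes. Over all genes 9.12% were called higher and 5.84% lower. The share called higher was 12.5% for endothelial, 11.1% for astrocyte, 11.1% for oligodendrocyte and 25% for neuronal genes, on 8 or 9 genes each. Of 5 erythrocyte genes none was called by limma and 0 had an unadjusted p under 0.05, with medians of -0.38, -0.11, -0.06 and 0.42 on arrays 1 to 4. Hba-a1 averaged -0.12 and Hbb-bs 0.12, and reads of the alpha and beta globin copies are uncertain because the copies are nearly identical. None of 8 mural cell genes was called by limma, with 3 at an unadjusted p under 0.05: Acta2 at 0.53, Myh11 at 0.30 and Vtn at 0.14 on average. Tagln averaged 0.32 and was not among the 3, at an unadjusted p of 0.13 by limma. Of 8 endothelial genes 1 rose, Pecam1 at 0.18. Of 9 astrocyte genes 1 rose, the aldolase Aldoc at 0.24. Of 9 oligodendrocyte genes 1 rose, Mbp, myelin basic protein, at 0.77. Of 8 neuronal genes 2 rose, Snap25, a synaptic SNARE protein, at 0.20 and Rbfox3 (NeuN) at 0.16. A further 3 had means below 0, Syt1 at -0.18, Tubb3 at -0.10 and Map2 at -0.06, none called. Syt1 and Tubb3 were below 0 on all 4 arrays. With 1 replicate left out, Mbp was called each time. Pecam1, Snap25 and Rbfox3 were lost without replicate 1, 2 or 3, at an adjusted p of up to 0.0994, 0.106 and 0.158, and Aldoc without replicate 2 (0.0572) or 3 (0.052). With processed signals or the deposited values, Aldoc was at 0.06 (adjusted p = 0.341), Snap25 at 0.09 (adjusted p = 0.18) and Rbfox3 at 0.14 (adjusted p = 0.0891), none called. With the mean over its probes Rbfox3 was at 0.07 (adjusted p = 0.297). Aldoc and Snap25 lay among the brightest 1% of tested genes.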
